A study of Mus musculus with 4 samples.

Results

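Expression of the MHC class II presentation genes was examined in tumor-associated macrophages (TAMs) from MCA205 tumors of control and propranolol treated mice. The group comprised 9 of the 54146 genes in the count table and was chosen by name. H2-Aa, H2-Ab1 and H2-Eb1 encode chains of the peptide-binding molecules I-A and I-E, H2-DMa, H2-DMb1 and H2-DMb2 encode chains of the peptide editor H2-DM, and Cd74 encodes the invariant chain. Ciita encodes the transcriptional activator of the pathway, and Ifi30 encodes GILT, a thiol reductase of endosomes and lysosomes. The 9 genes were found by their Ensembl identifiers in GENCODE M21, and all 9 had enough counts to be tested.

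MHC class II molecules present peptides from endocytosed material to CD4+ T cells. New class II dimers leave the endoplasmic reticulum bound to the invariant chain, which endosomal proteases cut down to the fragment CLIP, and H2-DM then exchanges CLIP for peptide. Macrophages have low levels of the pathway at rest and induce it with interferon gamma, which acts on Ciita, and CIITA docks onto a complex of RFX, CREB and NF-Y proteins that sits on the promoters of these genes.

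MCA205 is a transplantable mouse fibrosarcoma, and propranolol is a blocker of beta-adrenergic receptors. All tumors were grown under the skin of female C57BL/6 mice of 8 to 16 weeks. Control mice (labelled vehicle, 2 libraries) were compared with mice that drank water containing propranolol at 0.5 g/L from the day of tumor inoculation (2 libraries). Leukocytes were enriched on CD45 beads and live CD11b+ F4/80+ cells were sorted. Neither antibody separates macrophages from every other myeloid cell, and none of the sources used here says whether a library came from 1 mouse or from several.

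The libraries held 13798249 and 23018142 counts for control replicates 1 and 2, and 39818103 and 16424081 counts for propranolol replicates 1 and 2. Levels are CPM values on library totals scaled by TMM, a factor that evens out differences in composition between libraries. Levels of different genes are compared as CPM per kilobase of exon unless CPM is named. The length is that of all annotated exons of a gene in GENCODE M21 together, for example 3798 bases for H2-Aa and 981 for Ifi30. An order of genes by this level depends on that length, and a change of a gene between groups does not. Changed genes were those with more than 1.5-fold difference and an adjusted p under 0.05 (edgeR quasi-likelihood test, Benjamini-Hochberg over 14688 tested genes). The libraries held the macrophage markers of their label. The F4/80 gene Adgre1 had 975 and 1008 CPM in control and 1151 and 1100 CPM in propranolol libraries. The CD11b gene Itgam had 359 and 352 CPM in control and 369 and 313 CPM in propranolol libraries.

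Promoter sequences show what several of the class II genes have in common. The RefSeq promoter table for GRCm38.p6 had entries for 6 of the 9 genes, H2-Aa, H2-Eb1, H2-DMa, H2-DMb1, H2-DMb2 and Ifi30, and none for H2-Ab1, Cd74 and Ciita. Textbook class II promoters carry an X box, bound by RFX, next to a site for CREB, and a Y box, bound by NF-Y. Stretches of 80 bases from 4 of these promoters are printed 5′ to 3′ on the strand of the gene, at chr17:34287854-34287933 (minus strand) for H2-Aa, chr17:34305746-34305825 (plus strand) for H2-Eb1, chr17:34153068-34153147 (plus strand) for H2-DMb1 and chr17:34145097-34145176 (plus strand) for H2-DMb2. Capitals mark the letters searched for. They are TGATTGG for the Y box, TGACGTCA, the cyclic AMP response element, for the CREB site, and AACNGATGATGCT for the X box region, the longest stretch upstream of the Y box in which H2-Eb1, H2-DMb1 and H2-DMb2 differ at no more than 1 base.
H2-Aa: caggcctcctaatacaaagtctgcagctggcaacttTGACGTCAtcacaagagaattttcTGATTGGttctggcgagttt
H2-Eb1: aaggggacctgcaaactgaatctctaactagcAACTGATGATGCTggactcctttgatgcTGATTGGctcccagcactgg
H2-DMb1: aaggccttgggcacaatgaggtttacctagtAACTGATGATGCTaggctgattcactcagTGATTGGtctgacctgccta
H2-DMb2: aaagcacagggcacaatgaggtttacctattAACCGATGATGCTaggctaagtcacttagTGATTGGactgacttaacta

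The RefSeq start is that of the GENCODE gene for H2-Aa and H2-Eb1, but lies 119 bases downstream of it for H2-DMb1 and 1942 bases downstream for H2-DMb2, so the stretches of the H2-DMb genes fall largely inside the GENCODE gene bounds. Counted from the RefSeq start, the letters TGATTGG began 50 bases before the transcription start of H2-Aa, 61 before that of H2-Eb1, 63 before that of H2-DMb1 and 92 before that of H2-DMb2. The X box letters began 28 bases upstream of TGATTGG in H2-Eb1 and 29 bases upstream in both H2-DMb genes. H2-Aa did not hold the X box letters, which were drawn from the other 3 promoters. It had the TGACGTCA letters, 24 bases upstream of TGATTGG and directly after the letters aactt. An X box of other letters was not searched for in H2-Aa, so none is shown to be missing. Among all 32851 promoter entries searched on both strands, 7.82% held TGATTGG, 1.79% held TGACGTCA and 0.0152% (5 entries, 3 of them these) held the X box letters. The letters were chosen after these sequences had been seen, so the shares describe how common they are and are no test. A match is not evidence of a bound site. The entries of H2-DMa (2) and Ifi30 (1) held none of these letters in their window of 250 bases before to 50 bases after the start.

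In the comparison of propranolol with control TAMs, 1 of the 9 class II presentation genes, Ifi30, was changed, and it was higher. Across all tested genes, 27.8% were changed, 12.2% higher and 15.6% lower. The single call was lost, leaving 0 of 9, when library totals replaced TMM factors (log2 fold change 0.46) and when a trend with GC content was removed (0.47). The balance over all genes also depended on these steps, with 1798 higher and 2286 lower under TMM, 609 higher and 3497 lower with library totals, and 1121 higher and 730 lower after the GC correction. The log2 fold changes of the other 8 genes lay between -0.32 (H2-Aa) and 0.30 (H2-Ab1). The median of the 9 genes was -0.12, and that of all tested genes was -0.02. The groups of libraries did not overlap for 5 of the 9 genes, H2-Aa, H2-DMb1 and Ciita with both propranolol libraries below both control libraries and H2-Ab1 and Ifi30 with both above, where 72.6% of all tested genes did not overlap, 36.9% with propranolol below and 35.8% with propranolol above. In bulk RNA, fewer cells that express a gene and less RNA of it in each cell cannot be told apart.

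**Figure D1:**
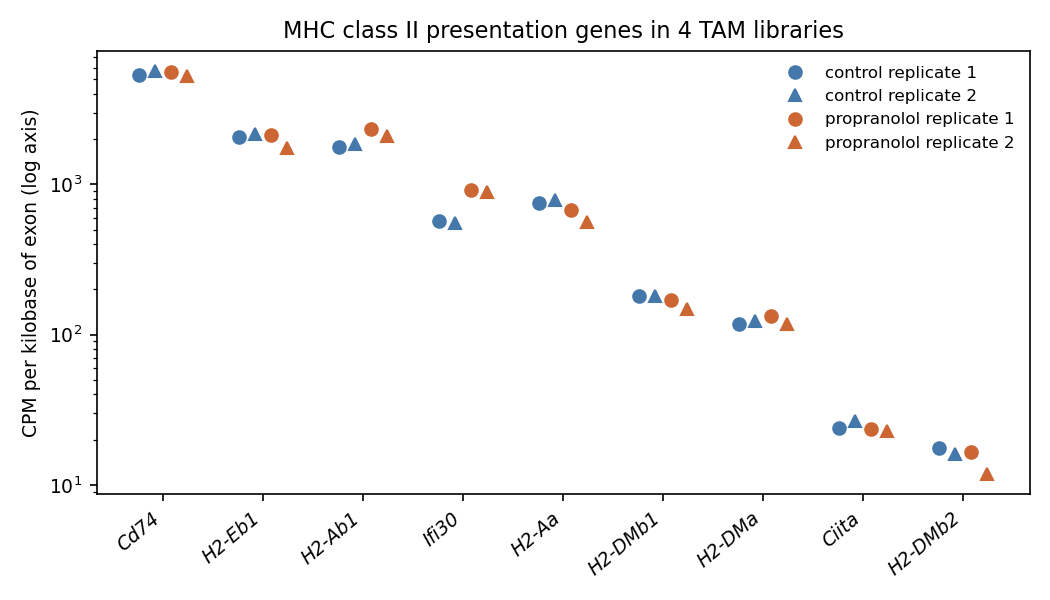
Level of each of the 9 class II presentation genes in CPM per kilobase of exon (log axis), with 1 point for each library and genes in order of their mean level. Blue points (control) and orange points (propranolol) lie apart with propranolol higher for Ifi30 and H2-Ab1, and the levels span from 11.8 (H2-DMb2) to 5699 (Cd74).

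The genes of the peptide-binding chains lie within a short stretch of chromosome 17 on GRCm38. H2-Aa, the alpha chain of I-A (chr17:34282744-34287823, minus strand), had 2863 and 2983 CPM in control TAMs and 2568 and 2123 CPM in propranolol TAMs. Both propranolol libraries lay below both control libraries, and propranolol replicate 2 was the lowest. The log2 fold change was -0.32 (SE 0.10, 95% interval -0.54 to -0.09, edgeR adjusted p = 0.0298), which is short of the 1.5-fold threshold. The log2 fold change was -0.16 without propranolol replicate 2, where it did not pass the adjusted p, and -0.46 without propranolol replicate 1. Without control replicate 1 (-0.29) or 2 (-0.27) it did not pass either, although the fold stayed close to that of all libraries.

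H2-Ab1, the beta chain that pairs with H2-Aa (chr17:34257689-34269419, plus strand), differed in the other direction under TMM scaling, but not after the GC correction (-0.04 for H2-Ab1 and -0.05 for H2-Aa). It had 4570 and 4767 CPM in control and 6035 and 5422 CPM in propranolol libraries, without overlap. The log2 fold change was 0.30 (SE 0.09, 95% interval 0.10 to 0.49, edgeR adjusted p = 0.0192), again short of 1.5-fold. Without propranolol replicate 1 it was 0.22 and did not pass the adjusted p. The ratio of H2-Aa to H2-Ab1 in CPM per kilobase was 0.424 and 0.423 in control and 0.288 and 0.265 in propranolol TAMs, a log2 difference of -0.61 in the fit and of -0.01 after the GC correction. Two-sided exact permutation of these ratios gave p = 0.333, the smallest value that 2 libraries against 2 allow.

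H2-Eb1, the beta chain of I-E (chr17:34305867-34316674, plus strand), had 4018 and 4186 CPM in control and 4169 and 3385 CPM in propranolol libraries. The groups overlapped, and only propranolol replicate 2 was below the control libraries. The log2 fold change was -0.12 (SE 0.10, 95% interval -0.35 to 0.11, edgeR adjusted p = 0.387). The ratio of H2-Eb1 to H2-Ab1 per kilobase was 1.16 in each control library and 0.912 and 0.825 in the propranolol libraries (exact permutation p = 0.333, two-sided). C57BL/6 mice lack a working gene for the I-E alpha chain, and the entry of that gene, H2-Ea-ps, had 0 counts in all 4 libraries.

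Under TMM scaling, the 3 genes of the peptide editor H2-DM gave log2 fold changes whose 95% intervals included 0. After the GC correction they were at -0.24 (H2-DMa), -0.42 (H2-DMb1, edgeR adjusted p = 0.0195) and -0.42 (H2-DMb2). H2-DMa, its alpha chain (chr17:34119541-34139101, plus strand), had 405 and 428 CPM in control and 463 and 402 CPM in propranolol libraries, with a log2 fold change of 0.05 (SE 0.10, edgeR adjusted p = 0.698). Of its exon bases, 10.4% are shared with Brd2 on the opposite strand, and the sources used here name no strand option of the counting, so those reads cannot be assigned to either gene.

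H2-DMb1, the main beta chain (chr17:34153072-34160230, plus strand), had 303 CPM in each control library and 288 and 249 CPM in propranolol libraries. The groups did not overlap, but the log2 fold change of -0.17 (SE 0.10) did not pass the test (edgeR adjusted p = 0.198). It was -0.04 without propranolol replicate 2. H2-DMb2, its neighbor and close copy (chr17:34143307-34151555, plus strand), had 30.7 and 28.1 CPM in control and 28.9 and 20.6 CPM in propranolol libraries, with a log2 fold change of -0.23 (SE 0.17, edgeR adjusted p = 0.300) and overlapping groups. Their counts are uncertain, since 22.7% of the 50-base exon windows of H2-DMb1 occur unchanged in H2-DMb2. Per kilobase, H2-DMb2 was at 0.0973 and 0.0892 of H2-DMb1 in control and at 0.0967 and 0.0797 in propranolol libraries.

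Cd74, whose product, the invariant chain, escorts new class II dimers and which lies on chromosome 18, was the most abundant of the 9 genes. It had 8998 and 9568 CPM in control and 9407 and 8910 CPM in propranolol libraries. All 4 values lay close together and the groups overlapped. The log2 fold change was -0.02 (SE 0.08, 95% interval -0.20 to 0.16, edgeR adjusted p = 0.866), an interval that lies well inside 1.5-fold in either direction in this fit. By level per kilobase, Cd74 ranked 3rd among all genes in both control libraries and 6th and 5th in propranolol replicates 1 and 2. The ratio of Cd74 to the summed I-A and I-E chains was 1.16 and 1.19 in control and 1.08 and 1.20 in propranolol libraries (exact permutation p = 1.0, two-sided).

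Ciita, the transcriptional activator on which the other class II genes depend (chr16:10480059-10528418, plus strand), had 228 and 254 CPM in control and 224 and 217 CPM in propranolol libraries. The groups did not overlap, although control replicate 1 and propranolol replicate 1 were close together. The log2 fold change was -0.13 (SE 0.10, 95% interval -0.35 to 0.09, edgeR adjusted p = 0.317). It was -0.03 without control replicate 2, and -0.43 (edgeR adjusted p = 0.0120) after the GC correction.

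Ifi30 (chr8:70762774-70766663, minus strand) encodes the enzyme that reduces disulfide bonds of antigens before they are cut into peptides. It had 559 and 541 CPM in control and 902 and 875 CPM in propranolol libraries, a mean of 550 ± 13.0 against 888 ± 19.6 CPM (SD, n = 2). The groups were far apart compared with the spread within each. The change was 1.62-fold (log2 fold change 0.69, SE 0.09, 95% interval 0.50 to 0.89, edgeR adjusted p = 0.000322), and it lay between 0.67 and 0.77 on the log2 scale when each library was left out in turn. Of its exon bases, 8.7% are shared with 6330537M06Rik on the opposite strand. The lower bound of the interval is below 1.5-fold, and the estimates with library totals (0.46) and after the GC correction (0.47) are also below 1.5-fold.

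**Figure D2:**
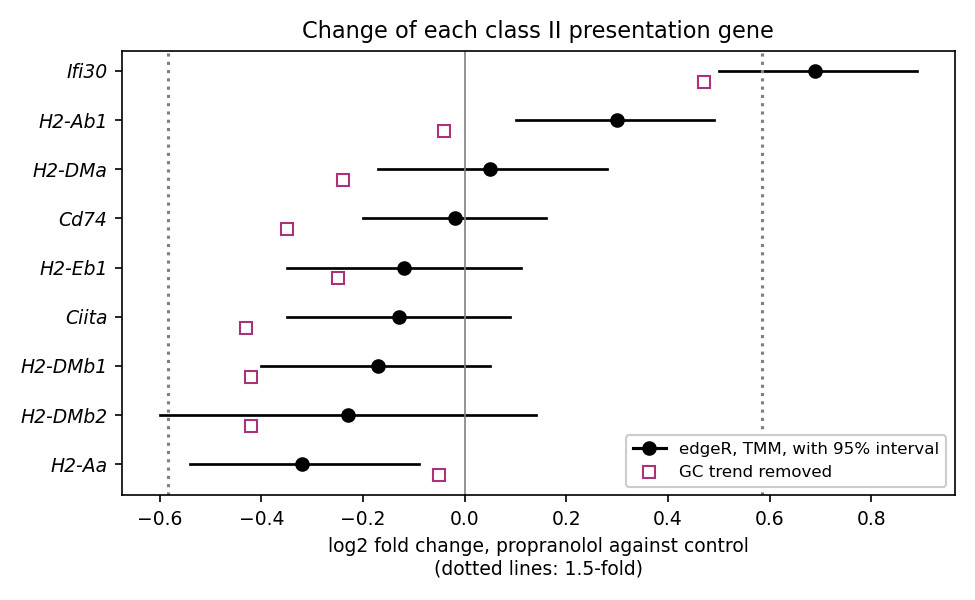
Log2 fold change of each class II presentation gene (horizontal axis), with filled circles for the edgeR estimate, lines for its 95% interval and open squares for the estimate after the trend with GC content was removed. Ifi30 is the only circle beyond a dotted 1.5-fold line (0.69), and its square (0.47) lies inside.

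The order of the genes by level per kilobase was largely shared by the groups. Cd74 was highest (mean 5529 in control and 5455 in propranolol), and Ciita (25.3 and 23.1) and H2-DMb2 (16.8 and 14.2) were lowest. H2-DMb1 (180 and 160) lay above H2-DMa (121 and 125) in every library. In CPM the order was the reverse in every library, with an exon length of 1681 bases for H2-DMb1 and 3448 bases for H2-DMa. H2-Ab1 and H2-Eb1 exchanged places per kilobase, whereas in CPM H2-Ab1 lay above H2-Eb1 in every library. Per kilobase, H2-Eb1 was above H2-Ab1 in both control libraries. Within each propranolol library H2-Ab1 (2350 and 2111) was above H2-Eb1 (2144 and 1741), although their values overlapped across libraries.

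H2-Aa and Ifi30 also exchanged places per kilobase, whereas in CPM H2-Aa lay above Ifi30 in every library. H2-Aa had 754 and 785 CPM per kilobase in control and 676 and 559 in propranolol libraries, against 570 and 551 in control and 920 and 891 in propranolol libraries for Ifi30. Ifi30 was therefore at 0.756 and 0.702 of H2-Aa in control TAMs and at 1.36 and 1.6 in propranolol TAMs (exact permutation p = 0.333, two-sided). The difference of the log2 fold changes of Ifi30 and H2-Aa was 1.01, and 0.52 after removal of the trend with GC content described next. For H2-Eb1 and H2-Ab1 it was -0.41, and -0.21 after that removal. H2-Aa ranked 30th and 27th among all genes in control and 54th and 68th in propranolol libraries.

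Together the 9 genes took 2.36% and 2.51% of all counts in control and 2.20% and 2.01% in propranolol TAMs. The means were 2.44% ± 0.107 and 2.10% ± 0.135 (SD, n = 2), a ratio of 0.863 (two-sided exact permutation p = 0.333, the smallest value possible). With TMM-scaled totals the shares were 2.19% and 2.31% in control and 2.41% and 2.16% in propranolol libraries, a ratio of 1.02 (exact permutation p = 1.0), so the lower summed share was not seen on the scale used for the test.

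Fold changes in these libraries moved with the GC content of genes, with a rank correlation of 0.577 across 14681 genes, which are not independent replicates. The class II genes were therefore set beside genes of like GC content, those within 1 percentage point. H2-Aa, at 46.5% GC, had the lowest GC content of the 9 genes, and its 1583 neighbors in GC content had a median log2 fold change of -0.20. H2-Ab1, at 57.3%, had the highest, and its 1157 neighbors had a median of 0.48. The other 7 genes lay at 51.8% to 56.6%, with neighbor medians of 0.23 to 0.47.

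When the GC trend was taken out library by library ahead of the test, the log2 fold changes of H2-Aa and H2-Ab1 were -0.05 and -0.04 (SE 0.10 each, edgeR adjusted p = 0.769 and 0.816). The direction of H2-Ab1 thus depended on this step. Cd74 was then at -0.35 (adjusted p = 0.0268), Ciita at -0.43 (adjusted p = 0.0120), H2-DMb1 at -0.42 (adjusted p = 0.0195) and Ifi30 at 0.47 (adjusted p = 0.00689) by the edgeR test. These 4 of 9 genes passed the adjusted p at any fold, where 24.1% of all tested genes did, and 0 of 9 passed 1.5-fold as well, where 12.6% did. With the replicate number as a block in addition, 7 of 9 passed the adjusted p at any fold, 6 of them lower, beside 31.8% of all tested genes, since H2-Eb1 (-0.26, adjusted p = 0.0388), H2-DMa (-0.24, adjusted p = 0.0498) and H2-DMb2 (-0.46, adjusted p = 0.0205) then passed in edgeR. Without the correction, H2-Aa, H2-Ab1 and Ifi30 (3 of 9) passed the adjusted p at any fold under TMM, beside 42.2% of all tested genes. With library totals 7 of 9 passed, Ifi30 higher and 6 lower, beside 42.1% of all tested genes, and H2-Ab1 (0.06, edgeR adjusted p = 0.566) was not among them. Whether the GC trend arose in the libraries or in the cells was not tested.

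**Figure D3:**
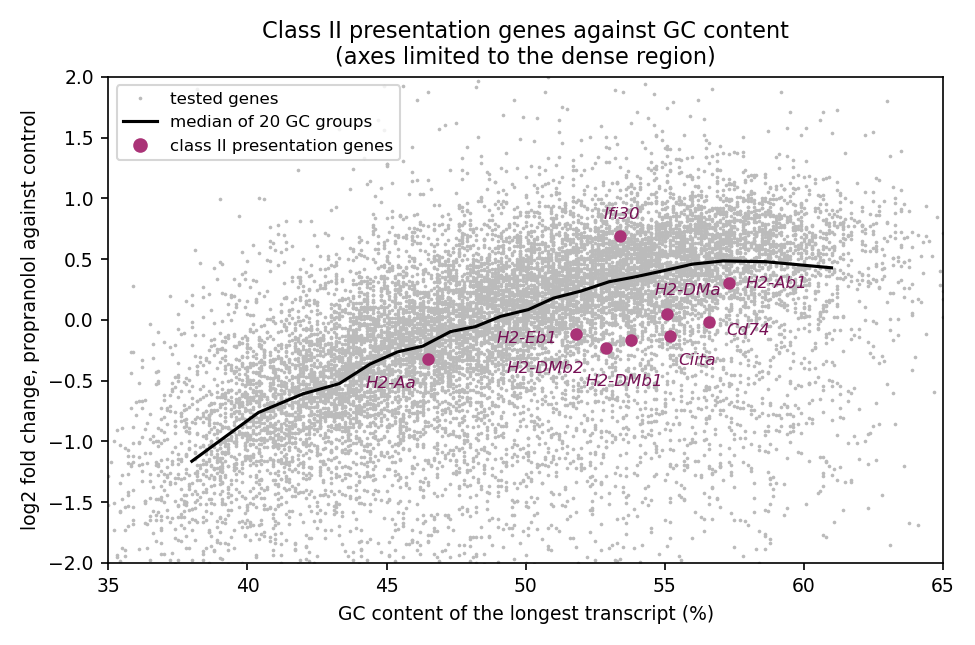
Log2 fold change (vertical axis) against GC content of the longest transcript in percent (horizontal axis), with tested genes as grey points, the median of 20 groups of genes by GC content as a black line and the class II presentation genes as colored points. Ifi30 lies above the line and the other 8 genes lie below it, H2-Aa at the lowest GC content (46.5%) and H2-Ab1 at the highest (57.3%).

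Genes around the pathway were taken from lists written by role. Of the 3 other class II chain genes tested, 1 was lower. It was a chain of H2-DO, which restrains H2-DM mainly in B cells. H2-Ob had 11.8 and 15.3 CPM in control and 9.10 and 7.66 CPM in propranolol libraries (log2 fold change -0.69, SE 0.21, edgeR adjusted p = 0.0225). It was at -0.39 (edgeR adjusted p = 0.189) after the GC correction. It was not called without control replicate 2 (-0.47) or without propranolol replicate 2 (-0.55). H2-Oa, at 3.27 to 5.46 CPM, had a log2 fold change of -0.31 (adjusted p = 0.456).

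Of the 7 genes of the RFX, NF-Y and CREB complex on class II promoters, 1 was higher and 1 lower, and the median log2 fold change was 0.02. Nfya, the NF-Y subunit that contacts the Y box, had 86.8 and 95.8 CPM in control and 141 and 148 CPM in propranolol libraries (log2 fold change 0.66, SE 0.10, edgeR adjusted p = 0.000853), but was at 0.42, under 1.5-fold, with library totals. Creb1 had 70.6 and 73.3 CPM in control and 44.8 and 47.0 CPM in propranolol libraries (-0.65, SE 0.11, adjusted p = 0.00116), a direction that turned to 0.27 with the GC correction. The most abundant RFX subunit, Rfxap, had a log2 fold change of 0.02 (adjusted p = 0.914). Without control replicate 2 the list had 4 calls, 3 higher and 1 lower.

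Of 14 genes on the route from interferon gamma to Ciita, 2 were lower and 0 higher, and the median was -0.03. With library totals 4 were lower, and after the GC correction 1 was. With DESeq2 or without a filter on low counts, 2 were lower and 1 higher. Ifng, the cytokine itself and a product of lymphocytes, had 8.83 and 7.97 CPM in control and 2.67 and 1.05 CPM in propranolol libraries (log2 fold change -2.09, SE 0.38, edgeR adjusted p = 0.00191), on 131, 200, 97 and 16 counts. With propranolol replicate 1 left out its log2 fold change was -2.99, and with propranolol replicate 2 left out it was -1.62. Jak2, a kinase of its receptor, had 91.7 and 92.6 CPM in control and 61.5 and 52.0 CPM in propranolol libraries (-0.69, SE 0.11, adjusted p = 0.00113), but -0.26 (adjusted p = 0.0989) after the GC correction and -0.55, under 1.5-fold, without propranolol replicate 2. Spi1, which encodes the myeloid factor PU.1 and was the most abundant of the list per kilobase, had 477 and 482 CPM against 734 and 693 CPM. Its log2 fold change was 0.57 (adjusted p = 0.000877), just short of 1.5-fold, and 0.24 (edgeR adjusted p = 0.104) after the GC correction. Socs3, an inhibitor of cytokine signaling, was at 0.17 (adjusted p = 0.296).

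Ifng was not the only lymphocyte gene that differed. All 10 T and NK cell markers were lower, with a median of -1.58. After the GC correction 9 of them were lower, with a median of -1.20. The 10 markers summed to 358 and 402 CPM in control and 175 and 84.3 CPM in propranolol libraries. Their most abundant gene per kilobase, Gzmb, fell from 106 and 104 CPM to 52.9 and 26.7 CPM. The log2 fold change of Gzmb was -1.38, and it was -1.97 with propranolol replicate 1 left out and -0.96 with propranolol replicate 2 left out. The part of these cells in the values of Ifng and of the class II genes was not tested.

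Of 9 GTPases that interferon gamma induces, 5 were lower (Iigp1, Gbp2, Gbp4, Gbp5 and Gbp7, the last 3 named after their values were seen) and 0 higher, with a median of -0.63. Iigp1 had 176 and 167 CPM in control and 54.6 and 40.2 CPM in propranolol libraries (log2 fold change -1.84, SE 0.14, edgeR adjusted p = 0.000103), and -0.89 after the GC correction. Gbp2 had 340 and 325 CPM against 208 and 165 CPM (-0.83, SE 0.12, adjusted p = 0.000587), and -0.58, under 1.5-fold, after that correction. Igtp was at -0.17 (adjusted p = 0.392). The call of Gbp4 was lost without control replicate 2 (-0.43) or propranolol replicate 2 (-0.49). With the GC correction 2 of the 9 were called, and the median was -0.14. Without a filter on low counts 3 were called, since Gbp4 (-0.56) and Gbp5 (-0.58) were then under 1.5-fold.

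Of 10 genes of endosomal processing, 5 were higher (Ctsz, Ctsd, Lgmn, Ctsl and Cst3) and 1 lower (Sppl2a), with a median of 0.57. Ctsz, a carboxypeptidase, rose from 1294 and 1309 CPM to 2513 and 2469 CPM (log2 fold change 0.94, SE 0.08, edgeR adjusted p = 0.000103). Ctsd, an aspartic protease, rose from 913 and 862 CPM to 1532 and 1524 CPM (0.78, SE 0.09, adjusted p = 0.000182), and Lgmn, the asparagine endopeptidase, rose from 2773 and 2557 CPM to 4321 and 4556 CPM (0.74, SE 0.09, adjusted p = 0.000214). Ctsd was under 1.5-fold after the GC correction (0.47) and with library totals (0.55), and Lgmn with library totals (0.50). Ifi30 acts in the same compartments.

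The enzymes of the last steps of invariant chain removal gave other values. Ctss, the protease that makes CLIP in most antigen-presenting cells, had 3242 and 2940 CPM in control and 2919 and 2563 CPM in propranolol libraries, which lay just below, with a log2 fold change of -0.17 (SE 0.10, edgeR adjusted p = 0.172). Sppl2a, the intramembrane protease that clears the remaining fragment of the invariant chain, was lower, from 266 and 241 CPM to 163 and 135 CPM (-0.77, SE 0.12, adjusted p = 0.000712), but was at 0.13 after the GC correction. Ctsl, a cysteine protease, and Cst3, the secreted inhibitor cystatin C, were named after their values were seen. The calls of both were lost without control replicate 2 (0.56 for each) or without propranolol replicate 1 (0.45 for Ctsl and 0.51 for Cst3). Of the 10 genes, 4 were called higher and 0 lower after the correction, which set the median to 0.36, and only 1 was higher with library totals in place of TMM factors.

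Of 8 genes of class II turnover and surface partners, 1 was higher and 1 lower, with a median of 0.01. Cd83, which protects surface class II molecules from the ubiquitin ligase MARCH1, fell from 141 and 137 CPM to 84.9 and 92.7 CPM (log2 fold change -0.64, SE 0.10, edgeR adjusted p = 0.000871), and was at -0.78 after the GC correction, but just under 1.5-fold without control replicate 1 (-0.57) or propranolol replicate 1 (-0.58). The tetraspanin Cd37 rose from 54.5 and 59.8 CPM to 87.0 and 95.4 CPM (0.67, SE 0.11, adjusted p = 0.00110), but was under 1.5-fold after the GC correction (0.33) and with library totals (0.44). The tetraspanins Cd81 (0.32, adjusted p = 0.0162) and Cd63 (0.24, adjusted p = 0.101) were not called.

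Surface CD74 is also a receptor for the cytokine MIF. Of 4 genes of that role, Mif was higher, with 135 and 140 CPM in control and 293 and 283 CPM in propranolol libraries (log2 fold change 1.07, SE 0.09, edgeR adjusted p = 0.000103), and 0.85 after the GC correction. The co-receptor gene Cxcr4 had 155 and 150 CPM in control and 167 and 212 CPM in propranolol libraries (0.31, adjusted p = 0.0673), and it was called higher after the GC correction (0.61, adjusted p = 0.00886).

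For comparison, 9 genes of class I presentation, which displays cytosolic peptides, had a median of 0.40, with 2 higher and 1 lower. H2-D1, a heavy chain, rose from 3356 and 3324 CPM to 5315 and 4984 CPM (log2 fold change 0.62, SE 0.08, edgeR adjusted p = 0.000350), and the immunoproteasome subunit Psmb9 rose from 202 and 213 CPM to 333 and 305 CPM (0.62, SE 0.10, adjusted p = 0.000913). B2m, the common light chain, fell from 2641 and 2462 CPM to 1766 and 1438 CPM (-0.67, SE 0.11, adjusted p = 0.000985), a direction that turned to 0.06 with the GC correction, and it was under 1.5-fold without control replicate 1 (-0.56) or propranolol replicate 2 (-0.50). Without propranolol replicate 1, H2-D1 (0.58) and Psmb9 (0.56) were under 1.5-fold, as they were with library totals (0.39 and 0.38). After the GC correction 0 of the 9 class I genes were called, and their median was 0.07, beside -0.25 for the class II genes. No test of the difference between the lists was made.

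**Figure D4:**
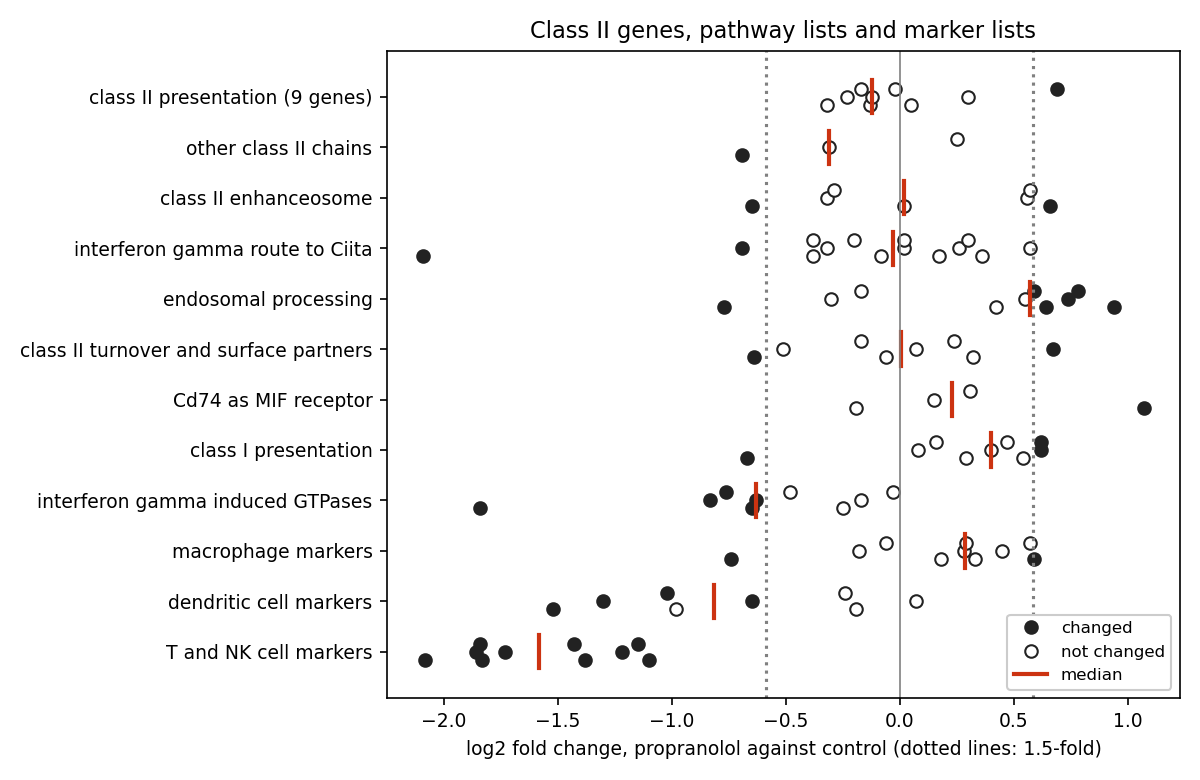
Log2 fold change (horizontal axis) of each tested gene of the class II group, of the pathway lists and of 3 marker lists (vertical axis), with filled points for changed genes, open points for the others and a bar for the median of each list. The class II points lie between the dotted 1.5-fold lines except Ifi30, all T and NK cell markers lie to the left of -1, and endosomal processing has 5 filled points on the right.

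Dendritic cells and B cells have high class II levels, so their markers were set beside the members. Of 8 dendritic cell markers, 4 were lower (Clec9a, Xcr1, Cd209a and Fscn1, named after their values were seen) and 0 higher, with a median of -0.81. After the GC correction 2 were lower, with a median of -0.63. The 8 markers summed to 100 and 88.9 CPM in control and 71.3 and 62.2 CPM in propranolol libraries. Over all libraries their most abundant gene per kilobase was Batf3, at 17.1 and 23.2 CPM in control and 24.1 and 18.1 CPM in propranolol libraries. In control alone, the mean of Fscn1 (14.0 CPM per kilobase) was above that of Batf3 (12.6). The call of Fscn1 was lost without control replicate 1 (log2 fold change -0.28, beside -0.65 with all libraries). That of Clec9a was lost without control replicate 2 (-1.15, beside -1.52). That of Cd209a was lost without control replicate 1 (-0.75) or propranolol replicate 2 (-0.81), beside -1.02 with all libraries. The 9 class II genes summed to 21976, 23058, 24085 and 21603 CPM in the same order. The class II sums of the propranolol libraries thus lay on either side of those of the control libraries, and the part of dendritic cells in the class II counts was not tested.

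B cell markers summed to 57.2 and 53.7 CPM in control and 58.9 and 58.4 CPM in propranolol libraries. Of the 8 listed, 5 were tested, of which Cd79b was higher and Ms4a1 and Ebf1 were lower, the latter 2 named after their values were seen. The call of Ms4a1, at about 1 CPM or less, was lost with any library left out. That of Ebf1 was lost without control replicate 1 (log2 fold change -1.27, beside -2.27 with all libraries). The defining B cell genes Cd79a and Pax5 were too low to test and were named after their values were seen, Cd79a with 1 and 5 counts in control and 11 and 21 counts in propranolol libraries. Cd79b, the most abundant of the list, had 8.70 and 11.8 CPM in control and 19.4 and 16.0 CPM in propranolol libraries, a call lost with the GC correction (0.52, edgeR adjusted p = 0.0791) and with library totals (0.54, edgeR adjusted p = 0.0540).

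Markers of other cell types were read in the same way. Neutrophil markers summed to 148 and 181 CPM in control and 309 and 325 CPM in propranolol libraries, 4 of 6 tested were higher, and S100a9 rose from 19.2 and 21.0 CPM to 83.8 and 82.4 CPM. Much of these sums came from Csf3r, which was not called (log2 fold change 0.56), with 97.0 and 130 CPM in control and 154 and 180 CPM in propranolol libraries. Ly6g (0 and 2 counts in control, 17 and 8 in propranolol libraries) and Ngp were too low to test. Csf3r, Ly6g and Ngp were named after their values were seen. Fibroblast and tumor cell markers summed to 3321 and 1211 CPM in control and 692 and 747 CPM in propranolol libraries, with 6 of 8 lower, and control replicate 1 stood apart with 905 CPM of Col1a1 beside 375, 247 and 277 CPM. Without that library the log2 fold change of Col1a1 was -0.46, beside -1.29 with it. Endothelial markers were led by Cdh5, with 4.86 and 3.75 CPM in control and 7.21 and 7.33 CPM in propranolol libraries. Cdh5 was the only 1 of 5 tested to be called (log2 fold change 0.77, edgeR adjusted p = 0.0374). The call was lost without control replicate 2 (0.60). It was also lost without either propranolol library, although the log2 fold change was then 0.78 in each case.

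Of the 10 macrophage markers, 1 was higher (Csf1r) and 1 lower (Ptprc, which encodes CD45 and was at 0.20 after the GC correction), both named after their values were seen, with a median of 0.29. Csf1r, at 0.59, was barely over 1.5-fold and was under it without propranolol replicate 2 (0.55), after the GC correction (0.32) and with library totals (0.36). Lyz2, the most abundant of the list, had 5889 and 5226 CPM in control and 7569 and 5961 CPM in propranolol libraries (log2 fold change 0.28, edgeR adjusted p = 0.0710). Without control replicate 1, the library with the highest stromal markers, the class II genes gave the same single call, Ifi30.

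The median of the centered log2 CPM values of H2-Aa, H2-Ab1, H2-Eb1 and Cd74 in each library was taken as a profile, and other genes were ranked by Euclidean distance to it among 2169 genes with a mean of at least 100 CPM. This median joins genes that differed in opposite directions, H2-Aa lower and H2-Ab1 higher in both propranolol libraries, so it is the pattern of none of them in particular. The nearest genes were C3ar1 (distance 0.026), Rab7b (0.031), Atp6v0b (0.037), Lcp1 (0.053) and Tlr2 (0.057). C3ar1, the receptor for complement C3a, had 498 and 522 CPM in control and 511 and 460 CPM in propranolol libraries. Lcp1, which encodes the leukocyte actin-bundling protein plastin, had 2150 and 2168 CPM in control and 2247 and 1928 CPM in propranolol libraries. Propranolol replicate 2 was the lowest library for each of the 5 genes, and 4 libraries give little to tell patterns apart.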

How the data were processed

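The authors deposited raw counts, whole fragments per gene, with no scaling. Per the labels and the submitters' processing notes, poly(A) RNA libraries were aligned to mm10 with STAR 2.7.1a, filtered with SAMtools 1.9 and counted with featureCounts 1.6.4. The annotation release and a strand option are not given in the sources used here. Columns were matched to libraries by the labels, and 0 columns were left out. GENCODE M21 gave symbols for 54079 of 54146 genes.

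R 4.3.3 and edgeR 4.0.16 (quasi-likelihood test, TMM, filterByExpr with a minimum count of 10, no covariates) were used, with DESeq2 1.42.0 as an alternative. TMM factors were 1.08 and 1.09 for control and 0.914 and 0.931 for propranolol libraries, and the common dispersion was 0.0172. Replicates of a group differed by more than sampling noise (chi-square per degree of freedom 11.8 and 15.1), and p-values measure only the spread between these 2 libraries a group. In the GC correction, each library's deviation from the gene mean was fitted on GC content (natural spline, df 5) and entered as an offset.

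The members and lists were chosen with earlier results of these data known. Named are all members, in each pathway list the 2 highest and 2 lowest changed genes and the 2 most abundant per kilobase, in each marker list the most abundant gene and those at 0, and the 5 genes nearest in pattern. Alternatives were other scalings and filters, DESeq2, the replicate block, the GC correction with and without it, each library left out and a log2 fold threshold of 1.5. On simulated counts, edgeR called 96.8% of 188 genes changed by 1.5 on the log2 scale, with 11 false calls among 14253 genes. The simulation gave every gene the same dispersion, had no GC trend and changed few genes. It therefore checks that the code runs, and says nothing about calls near 1.5-fold or about the GC trend. Promoter sequences are from RefSeq (GRCm38.p6).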

Additional observations from a re-analysis of the deposited data

How the results depend on the processing

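With 2 libraries a group, an exact permutation test cannot give a p below 0.333, and the edgeR fit borrows its spread from all genes. Where leaving out a library left 1 in its group, that library was taken to vary as the other group does. Depth limits genes of few counts such as Ifng and Cd79a, not the 9 class II genes.

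The count of changed genes, 4084, was 1851 with the GC correction, 2120 with the GC correction and the replicate block, 728 at a log2 fold change above 1.5, 3722 with DESeq2 and 3615 to 4329 with a library left out. The count of changed class II genes, 1 (Ifi30), was 0 with library totals only, with the GC correction with or without the block, and at a log2 fold change above 1.5, and 1 under each of the others. Changed genes of the pathway lists numbered 22 of 64, 11 with the GC correction, 13 with it and the block, and 2 at a log2 fold change above 1.5. Of the 22, 10 were higher and 12 lower. With library totals 2 were higher and 16 lower, and without a filter on low counts 15 were higher and 8 lower. The ratio of summed class II shares, 0.863, was 1.02 on TMM-scaled counts.

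Of 126 pairs of a class II gene and an alternative, 109 kept direction and call. Ifi30 was at 0.46 with library totals only and 0.47 with the GC correction with or without the block, and its adjusted p was at most 0.00689. Direction turned in the following. With the GC correction, H2-Ab1 was at -0.04, H2-DMa at -0.24, B2m at 0.06, Batf3 at -0.23, Cd63 at -0.10, Creb1 at 0.27, Ctss at 0.13, Ptprc at 0.20, Rfxap at -0.08, Socs3 at -0.17 and Sppl2a at 0.13. With the block as well, they were at the same values except Batf3 (-0.24), Cd63 (-0.09) and Socs3 (-0.16). With library totals only, H2-DMa was at -0.18, Batf3 at -0.16, Rfxap at -0.21 and Socs3 at -0.07, and this scaling moved the median of all genes from -0.02 to -0.25. It also ended the calls of Nfya, Ctsd, Lgmn, Ctsl, Cst3, Cd37, H2-D1, Psmb9, Csf1r, Cd79b and Cdh5, as the GC correction did for Ctsd, Cst3, Cd37, H2-D1, Psmb9, Csf1r, Cd79b, Cdh5, Gbp2, Gbp4, Gbp7, H2-Ob, Jak2, Ms4a1, Xcr1 and Cd209a. DESeq2 ended those of Col1a1, Cd209a and Cdh5, upper-quartile factors those of Ctsl, Cst3, H2-D1, Psmb9, Csf1r and Cdh5, the stricter filter those of Csf1r and Cst3, and no filter those of Creb1, Cd83, Gbp4, Gbp5 and Fscn1. With upper-quartile factors, H2-DMa was at -0.01 and Rfxap at -0.04. Cd74 was at 0.00 with DESeq2 and 0.05 without a filter. With a library left out, Cd74 ranged from -0.06 to 0.05, H2-Eb1 from -0.27 to 0.05, H2-DMa from -0.05 to 0.18, H2-DMb2 from -0.51 to 0.01, Batf3 from -0.16 to 0.33, Igtp from -0.47 to 0.09 and Rfxap from -0.01 to 0.12. The cause was not tested.

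Replicate numbers were shared by the groups, but with 2 pairs they only name the libraries. The deviations of same-numbered libraries correlated at 0.142 across 14688 genes. With the replicate block 4362 genes were changed, and of the class II genes Ifi30 alone was called. With the GC correction the block raised the class II genes under the adjusted p at any fold from 4 to 7.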
